A study of Mus musculus with 6 samples.

Results

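Protocadherins are cadherin-type adhesion proteins of the plasma membrane, best known from the nervous system, where combinations of them mark individual neurons. In the mouse most of them lie in 3 neighbouring clusters on chromosome 18, called alpha, beta and gamma. In the alpha and gamma clusters each of many variable first exons is spliced to the same constant exons of its cluster, whereas each beta gene is a separate gene with its own ending. The non-clustered protocadherins are scattered over the genome and fall mainly into the delta-1 and delta-2 groups, which differ in their cytoplasmic tails and in the number of their extracellular repeats. The members described here are all genes whose symbol begins with Pcdh in the deposited count table, 36 of 31854 rows once the lower of a pair of Pcdha11 rows is set aside. They comprise 12 non-clustered genes, 21 beta genes, 2 rows with alpha symbols (Pcdha4 and Pcdha11) and 1 row with a gamma symbol (Pcdhga12). Pcdhb21 and the other alpha and gamma isoforms were not analysed here under their own symbols.

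The cells were 4T1, derived from a mouse mammary carcinoma, and RNA-seq covered 2 groups of them. The LINC01133 group (3 libraries) carried a pLVX plasmid expressing LINC01133, a human long noncoding RNA, and is labelled as an overexpression genotype. The control group (3 libraries) carried the pLVX vector without an insert and is labelled WT. Both groups were grown as cultured cells in the same serum-containing medium, and the labels do not say whether they came from the same parental cells, how many clones they stand for or whether the 3 samples of a group were separate cultures. The p-values thus reflect sample-to-sample spread alone, and that spread may be technical.

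The libraries held 26719396 to 33877549 counts with LINC01133 and 25521469 to 27035127 in the controls, so that 3 counts in a library corresponded to 0.0827 to 0.128 CPM (read counts relative to the TMM-scaled library size). The ribosomal RNA precursor row Rn45s took 21.03 to 23.0% of counts with LINC01133 and 25.4 to 27.9% in the controls. The groups differed in most genes: of 14116 tested, 44.5% were called higher and 40.5% lower with LINC01133 by edgeR's quasi-likelihood test (adjusted p under 0.05). Without TMM, on raw library sizes, the whole table shifted upward by a median of 0.244 (log2), and 65% of calls were higher in place of 52.4%. Of the markers of the labelled epithelial line, 5 of 8 were called higher and 3 (Krt7, Krt5 and Krt14) lower. Their summed level was 384 to 392.2 CPM with LINC01133 against 155.2 to 163.6 CPM in the controls. Krt8 (217 against 145.3 CPM) and Krt18 (158.2 against 2.06 CPM) together made up most of that sum. Epcam had 78 counts in all with LINC01133 and none in the controls, and Cdh1 had 138 and 4 counts, so that both defining epithelial adhesion genes were low or at 0. Fibroblast markers were split, with 3 of 4 tested members lower and 1, Dcn, higher (4.15 against 0.0137 CPM). Their summed level was 19.5 to 20.1 CPM with LINC01133 against 169 to 174.7 CPM in the controls. That difference was mostly Pdgfrb (0.775 against 106.7 CPM) and Pdgfra (13.6 against 60.2 CPM). Lum was at 0 in both groups. Col3a1, Thy1 and Postn were at 0 in the controls and had few counts with LINC01133. Summed markers of neurons (35.8 to 36.8 against 7.94 to 9.14 CPM), glia (11.0 to 11.7 against 1.499 to 2.58 CPM), endothelium (15.9 to 16.2 against 0.2915 to 0.8962 CPM) and leukocytes (16.9 to 18.0 against 3.20 to 3.91 CPM) were higher with LINC01133. Called higher were 3 of 4 tested neuron markers (1, Tubb3, lower) and 3 of 4 of glia. So were 3 of 3 of endothelium and 2 of 2 of leukocytes. The higher neuron sum rests mainly on Map2 (28.1 CPM with LINC01133 against 0.0414 CPM), while Tubb3 stood at 6.47 against 8.19 CPM. Most of the glia sum with LINC01133 was Mbp (8.39 against 0.850 CPM). Rbfox3 and Stmn2 (neuron), Aqp4 (glia), Cdh5 (endothelium) and Cd3e (leukocytes) had no count in the controls. The part of these markers in the results below was not tested. In bulk RNA a smaller number of cells of a type and less RNA per cell cannot be told apart.

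The protocadherins at high level differed between the groups. With LINC01133 the delta-1 genes Pcdh7 and Pcdh1 stood at 140.3 and 81.1 CPM, where the controls had 0.639 and 0.0416 CPM. The delta-2 genes Pcdh18, Pcdh17 and Pcdh19 stood at 2.34, 0.0460 and 0.0214 CPM, against 127.0, 98.3 and 15.8 CPM in the controls. The beta cluster as a whole stood at 4.25 ± 0.386 CPM with LINC01133, against 87.4 ± 1.07 CPM in the controls (SD, n = 3 each), or 4.87% of the control level. The rows Pcdhga12 and Pcdha4 changed least, to 56.7% and 73.6% of control. Because gains and losses nearly cancelled, the 12 non-clustered genes together stood at 225.1 ± 3.27 CPM with LINC01133 and 241.9 ± 4.73 CPM in the controls (log2 ratio -0.10, and 0.14 when scaled by library size alone).

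Of the 36 genes, 23 passed the count filter. By edgeR, 3 were called higher and 20 lower at an adjusted p under 0.05, and none of the 23 had CPM values that overlapped between the groups. At least 2-fold higher were 3 and at least 2-fold lower 18. Across all genes tested, 20.3% were called at least 2-fold higher and 13.9% at least 2-fold lower. With no minimum fold, 44.5% were called higher, 40.5% were called lower, and the groups did not overlap in 44.5% (higher) and 40.5% (lower). A gene can pass the filter through the group in which it is high, so these counts describe the genes that passed and not the whole family. At least 8-fold lower were 12 of the 23, where 3.43% of all tested genes were, and at least 8-fold higher were 2, where 9.94% of all tested genes were. The 13 genes that did not pass had no more than 45 counts per group, all libraries added.

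**Figure D1:**
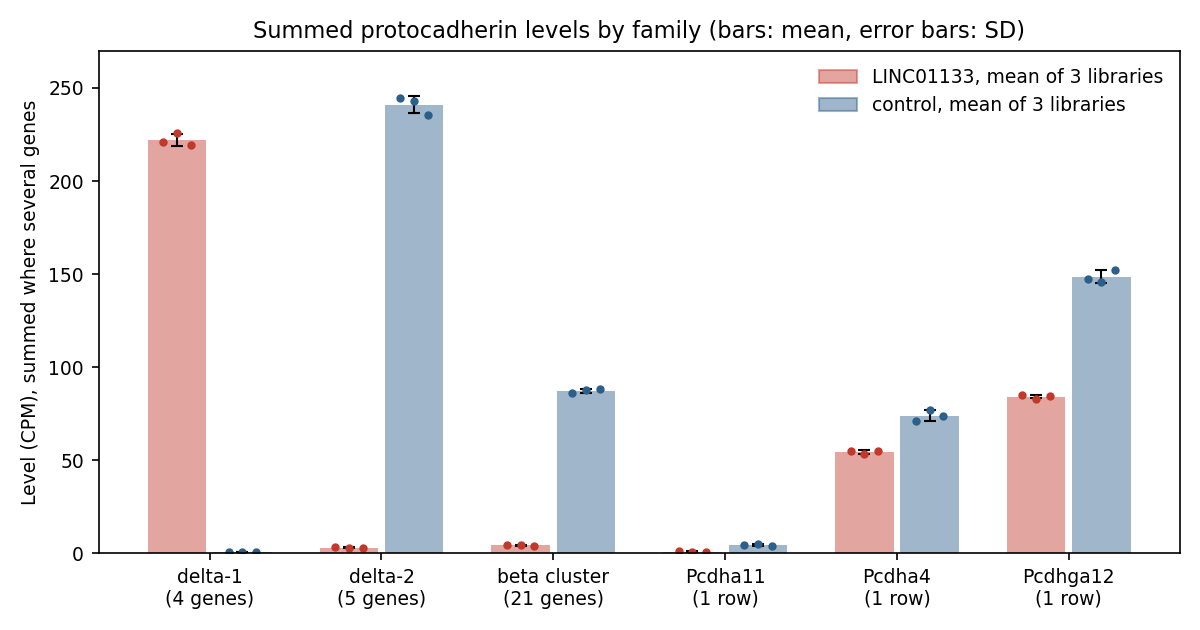
Level in CPM (y axis) of the delta-1, delta-2 and beta genes, each summed over its genes, and of the single rows Pcdha11, Pcdha4 and Pcdhga12, in LINC01133 (left bar) and control (right bar) libraries. Bars are means of 3 libraries, error bars are SD and points are single libraries; the delta-1 sum is 221.9 against 0.765 CPM, the delta-2 sum 2.98 against 241.1 CPM and the beta sum 4.25 against 87.4 CPM.

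Of the 4 delta-1 genes, whose products carry a binding motif for protein phosphatase 1 in their tails, 3 were tested and called higher with LINC01133. Over all genes tested 44.5% were called higher, and a gene can pass the count filter through the LINC01133 group alone. Pcdh7 is a delta-1 protocadherin that has been linked in other cancer models to contacts between metastatic cells and brain astrocytes (uc057bug.1; chromosome 5, 57717967 to 58133230 on mm10). It had 4089, 5167 and 4612 counts with LINC01133, against 21, 11 and 14 counts in the controls. All 3 LINC01133 libraries were high and all 3 controls low, without overlap. The level was 140.3 ± 1.96 CPM with LINC01133 and 0.639 ± 0.205 CPM in the controls (log2 fold change 7.77, SE 0.0804, adjusted p = 2.41e-120).

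Pcdh1, which takes part in adhesion of epithelial cells, lies beyond the gamma cluster on chromosome 18 (uc008eru.1; 38185914 to 38212053). Its counts were 2387, 3003 and 2629 with LINC01133, and 0, 3 and 0 in the controls. All control reads thus came from control replicate 2. The ratio of LINC01133 to control was 1944 (95% exact interval 664.9 to 9428, counting error only), and the level with LINC01133 was 81.1 ± 1.69 CPM. The fitted log2 fold change was 10.78 (SE 0.145, adjusted p = 2.18e-106), and 14.21 without control replicate 2, which leaves the controls without a read. Among 14116 genes it had the rank 32 from the top, and Pcdh7 the rank 241.

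Pcdh9 was higher at a low level, with 27, 14 and 12 counts in LINC01133 libraries and 0, 3 and 3 counts in controls (0.555 ± 0.314 and 0.0843 ± 0.0730 CPM; log2 fold change 2.63, SE 0.581, adjusted p = 2.00e-05). Pcdh11x, an X-linked delta-1 gene, had a single count over the 6 libraries, in LINC01133 replicate 2. Summed per library, the 4 delta-1 genes had 219.2 to 225.7 CPM with LINC01133 and 0.708 to 0.861 CPM in the controls.

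Of the 5 delta-2 genes, 3 were tested and called lower, and the others, Pcdh8 and Pcdh10, were below the count filter. Over all genes tested 40.5% were called lower, and a gene can pass the count filter through the controls alone. Delta-2 proteins carry a cytoplasmic motif that binds the WAVE actin regulatory complex. Pcdh18 (uc008pdg.2; chromosome 3, 49743296 to 49757325) had 72, 81 and 77 counts with LINC01133, against 3148, 3006 and 2969 counts in the controls. It remained clearly detected in each LINC01133 library, at 2.34 ± 0.106 CPM against 127.0 ± 1.95 CPM, 1.84% of the control level (log2 fold change -5.77, SE 0.0623, adjusted p = 5.81e-118).

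Pcdh17, known for its part in axon growth and synapse organisation (uc007utp.2; chromosome 14, 84443563 to 84539002), had 0, 5 and 0 counts with LINC01133, and 2425, 2423 and 2217 counts in the controls. Only LINC01133 replicate 2 held reads of it. Levels were 0.0460 ± 0.0796 CPM and 98.3 ± 3.28 CPM (log2 fold change -10.80, SE 0.128, adjusted p = 4.43e-107). Without LINC01133 replicate 2 the fitted value was -14.37, since no read is then left in that group. It ranked 29 from the bottom of all genes tested.

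Pcdh19, the X-linked gene mutated in a form of human epilepsy (uc009uew.2; chromosome X, 133582860 to 133688987), had 1, 0 and 1 counts with LINC01133 and 389, 409 and 338 counts in the controls. Its control level was 15.8 ± 1.31 CPM and exceeded that with LINC01133 by a ratio of 781.0 (95% exact interval 215.7 to 6457; adjusted p = 1.73e-68). The remaining delta-2 genes had few reads, most of them with LINC01133. Pcdh10, often silenced in human tumours, had 22, 7 and 13 counts with LINC01133 and 1, 0 and 0 counts in the controls, a ratio of 30.5 (95% exact interval 5.19 to 1235). Pcdh8 had 1, 9 and 4 counts with LINC01133 and none in the controls, at least 3.39-fold higher taking 3 counts for the whole group as the floor. Both were below the count filter. Pcdh10 passed it and was called higher, with log2 fold changes of 4.10 to 6.66, when LINC01133 replicate 2 or any 1 control was left out.

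**Figure D2:**
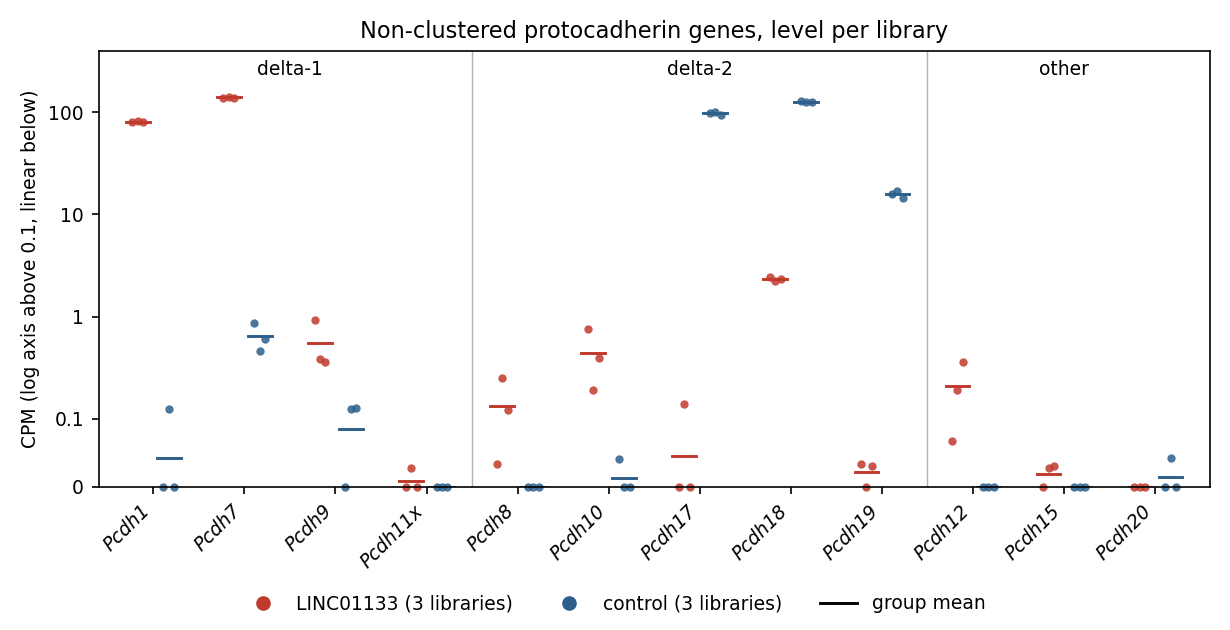
CPM of the 12 non-clustered protocadherin genes in each library (y axis, logarithmic above 0.1 and linear below), LINC01133 left and control right for each gene, with lines at the group means. Pcdh1 and Pcdh7 are high in the LINC01133 libraries (means of 81.1 and 140.3 CPM), and Pcdh17, Pcdh18 and Pcdh19 in the controls (98.3, 127.0 and 15.8 CPM).

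The other non-clustered genes were at or near 0. Pcdh12, expressed in endothelium and also called vascular endothelial cadherin 2, had 2, 7 and 12 counts with LINC01133 and none in the controls (at least 5.09-fold higher against the same floor). Pcdh15, which forms the tip links of inner ear hair cells, had 0, 1 and 1 counts with LINC01133 and none in the controls. Pcdh20 had no count with LINC01133 and 1 count in the controls.

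To show what the genes that moved together carry upstream of their start, the 250 bases before the RefSeq start sites (RefSeq sequences, GRCm38.p6) are given for the strongly changed non-clustered genes that the promoter table holds. It held 9 of the 12 non-clustered genes; Pcdh1, Pcdh11x and Pcdh12 were not among them. Capitals mark GATTGGCT on the strand shown, a form of the inverted CCAAT box; this motif was chosen after the sequences were seen, and was searched on both strands.
Pcdh17 (chr14:84443313-84443562, plus strand): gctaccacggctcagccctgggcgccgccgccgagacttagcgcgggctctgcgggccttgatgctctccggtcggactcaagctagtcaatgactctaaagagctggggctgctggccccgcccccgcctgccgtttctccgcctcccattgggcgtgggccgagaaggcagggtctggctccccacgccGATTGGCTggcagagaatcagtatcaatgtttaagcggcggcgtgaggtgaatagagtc
Pcdh18 (chr3:49757317-49757566, minus strand): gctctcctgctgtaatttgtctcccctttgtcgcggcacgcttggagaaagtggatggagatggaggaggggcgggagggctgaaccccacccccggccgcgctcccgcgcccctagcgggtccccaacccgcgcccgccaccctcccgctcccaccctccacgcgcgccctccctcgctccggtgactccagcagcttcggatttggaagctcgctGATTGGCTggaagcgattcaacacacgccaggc
Pcdh19 (chrX:133688994-133689243, minus strand): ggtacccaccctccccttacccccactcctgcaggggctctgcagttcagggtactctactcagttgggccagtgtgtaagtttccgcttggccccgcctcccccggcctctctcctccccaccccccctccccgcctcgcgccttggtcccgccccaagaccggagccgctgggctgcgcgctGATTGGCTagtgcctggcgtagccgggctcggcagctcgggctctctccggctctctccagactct
Pcdh7 (chr5:57717831-57718080, plus strand): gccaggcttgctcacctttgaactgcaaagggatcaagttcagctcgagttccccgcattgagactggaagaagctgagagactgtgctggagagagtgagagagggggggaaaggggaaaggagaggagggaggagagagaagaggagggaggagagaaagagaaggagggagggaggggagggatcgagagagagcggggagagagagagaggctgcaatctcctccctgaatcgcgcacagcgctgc
Each of the 3 lower genes held GATTGGCT once, beginning 59 (Pcdh17), 33 (Pcdh18) and 66 bases (Pcdh19) before the start. Pcdh7 did not hold it, nor did the other 5 genes matched. The Pcdh7 window runs into the GENCODE span of its gene, which begins at 57717967, and the Pcdh15 window lies inside its gene. For these genes sequence further upstream was not searched. GATTGGCT occurs in 3.62% of 32851 promoter windows of the same length. Among tested genes with a promoter it occurs in 6.27%, and in 5.39% of those at least 8-fold lower. A CCAAT in either direction, which occurs in 33.8% of windows, was also present in Pcdh8, Pcdh9, Pcdh10, Pcdh15 and Pcdh20. The lower genes had 21 (Pcdh17), 23 (Pcdh18) and 16 (Pcdh19) CpG dinucleotides in the window and Pcdh7 had 7, where the median of all windows was 6. CpG-rich windows were also found in Pcdh9 (18), which was called higher, and in Pcdh10 (22), which had 42 against 1 counts. The GC box GGGCGG, on either strand, occurred once in Pcdh17, Pcdh18, Pcdh19 and also Pcdh10, as in 32.7% of windows, and not in Pcdh7 or Pcdh9.

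Of the 21 beta genes, 14 were tested and called lower, and 7 were below the count filter. Over all genes tested 40.5% were called lower. A gene can pass the filter through the controls alone, so this count describes the genes that passed and not the whole cluster. The beta genes span 259.5 kb of chromosome 18 (37264938 to 37524479) and encode neuronal adhesion proteins from a single exon each. Over all 21 genes there were 420 counts in the 3 LINC01133 libraries and 6278 in the controls. Per library the sum was 4.48, 4.47 and 3.81 CPM with LINC01133 and 86.3, 87.5 and 88.4 CPM in the controls (log2 ratio -4.36). The 14 tested genes had log2 fold changes between -8.69 (Pcdhb5) and -1.54 (Pcdhb19).

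Pcdhb22, the last gene of the cluster, was the most abundant of them. It had 51, 58 and 44 counts with LINC01133 and 756, 730 and 767 counts in the controls, or 1.55 ± 0.205 and 31.4 ± 1.21 CPM (log2 fold change -4.34, SE 0.1002, adjusted p = 1.18e-77). Its share of the cluster's counts differed by less than its spread, 36.5% ± 1.94 with LINC01133 and 35.9% ± 1.14 in the controls. Its gene model measures 7768 bases, and Pcdhb21 overlaps it in the annotation, so that its reads may include those of Pcdhb21.

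Several genes of the first part of the cluster had almost no reads left. Pcdhb5 had 1, 0 and 1 counts with LINC01133 and 240, 259 and 230 counts in the controls, a control to LINC01133 ratio of 501.2 (95% exact interval 138.3 to 4146; adjusted p = 6.06e-58). Pcdhb7 had 3, 1 and 0 counts with LINC01133 and 161, 177 and 196 counts in the controls (log2 fold change -7.37, adjusted p = 3.18e-49, and -8.62 without LINC01133 replicate 1). Pcdhb4 had 1, 2 and 2 counts with LINC01133, against 159, 152 and 145 in the controls (log2 fold change -6.85, adjusted p = 1.86e-46). These genes were far below control in each of the 3 LINC01133 libraries. Pcdhb9 had 0, 1 and 1 against 119, 97 and 82 counts, a control to LINC01133 ratio of 204.9 (56.2 to 1700; adjusted p = 7.88e-37). Pcdhb2 had 0, 0 and 1 against 74, 85 and 57 counts (ratio 297.0, interval 52.8 to 11790; adjusted p = 1.01e-30; fitted log2 fold change -7.70, and -9.37 without LINC01133 replicate 3). Pcdhb3 had 0, 2 and 0 against 38, 31 and 34 counts (ratio 70.8, interval 19.1 to 592.6; adjusted p = 9.22e-19; fitted log2 fold change -5.87, and -8.27 without LINC01133 replicate 2). Among genes below the count filter, Pcdhb6 had no read with LINC01133 and 11, 8 and 16 in the controls, at least 16.0-fold lower, and Pcdhb12 had 1, 1 and 0 against 15, 21 and 9 (ratio 30.9, interval 8.08 to 263.3).

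The genes from Pcdhb14 on differed in how much was left, from 1.251% of control (Pcdhb20) to 32.6% (Pcdhb19). Pcdhb17 had 21, 18 and 21 counts with LINC01133 and 121, 91 and 108 in the controls, 13.8% of the control level (log2 fold change -2.86, adjusted p = 1.44e-26). Pcdhb16 had 14, 23 and 14 counts with LINC01133 and 53, 54 and 54 in the controls, or 22.8% (-2.11, adjusted p = 9.98e-13). Pcdhb14 had 6, 9 and 6 against 37, 39 and 30 counts, or 14.3% (-2.77, adjusted p = 1.64e-12). These genes were lower in every LINC01133 library but stayed detected. Pcdhb18 had 7, 9 and 14 against 27, 26 and 29 counts, or 26.5% (-1.90, adjusted p = 3.27e-07). Pcdhb15 had 9, 2 and 4 against 51, 55 and 53 counts, or 7.25% (-3.82, adjusted p = 4.37e-20, and -4.61 without LINC01133 replicate 1). Pcdhb19 was below 1 CPM in both groups, with 3, 15 and 5 against 14, 21 and 14 counts, or 32.6% (-1.54, adjusted p = 0.000473, and -2.37 without LINC01133 replicate 2). For Pcdhb19, the 15 counts of LINC01133 replicate 2 exceed the counts of control replicates 1 and 3, and the groups are apart only after scaling to CPM. Pcdhb20 had 3, 8 and 1 against 214, 235 and 226 counts, or 1.251% of control (-6.22, adjusted p = 2.37e-53, and -7.10 without LINC01133 replicate 2).

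Divided after these values were seen, the 12 genes Pcdhb2 to Pcdhb13 together kept 1.395% of their control level (0.480 ± 0.140 against 34.4 ± 0.862 CPM), and the 8 genes Pcdhb14 to Pcdhb22 kept 6.97% (3.69 ± 0.348 against 53.0 ± 1.46 CPM). This restates how the genes were divided, and single genes do not all follow it: in the first group, Pcdhb8 kept 21.6% and Pcdhb11 23.9% of control at few reads, and Pcdhb13 had 11 counts against 7. Within the cluster, Pcdhb17 made up 14.6% ± 3.01 of beta counts with LINC01133 and 5.10% ± 0.715 in the controls, and Pcdhb16 12.0% ± 1.94 and 2.57% ± 0.0444. Pcdhb5 made up 0.517% ± 0.448 and 11.6% ± 0.640, and Pcdhb20 2.67% ± 2.10 and 10.8% ± 0.527. With LINC01133 these shares rest on few reads, 420 over the cluster.

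Pcdhb1, Pcdhb8, Pcdhb10, Pcdhb11 and Pcdhb13 were low in both groups. Pcdhb1, the first gene of the cluster, had 0, 2 and 6 counts with LINC01133 and none in the controls, at least 1.94-fold higher. Pcdhb13 had 4, 4 and 3 counts with LINC01133 and 0, 2 and 5 in the controls, and Pcdhb10 had 3, 0 and 1 against 0, 2 and 4, with overlapping values. Pcdhb8 had 2, 2 and 1 against 6, 7 and 4 counts, and Pcdhb11 had 3, 5 and 1 against 9, 9 and 9. None of these 5 genes passed the count filter. Beta genes resemble each other, and reads from identical stretches may have been assigned to a neighbour or dropped. Of the 50-base windows of each gene's annotated transcripts, between 0% (Pcdhb1) and 11.99% (Pcdhb12) also occurred in another protocadherin gene, and at 100 bases the highest share was 5.39% (Pcdhb22, with Pcdhb21). No 50-base window of a non-clustered member was shared.

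**Figure D3:**
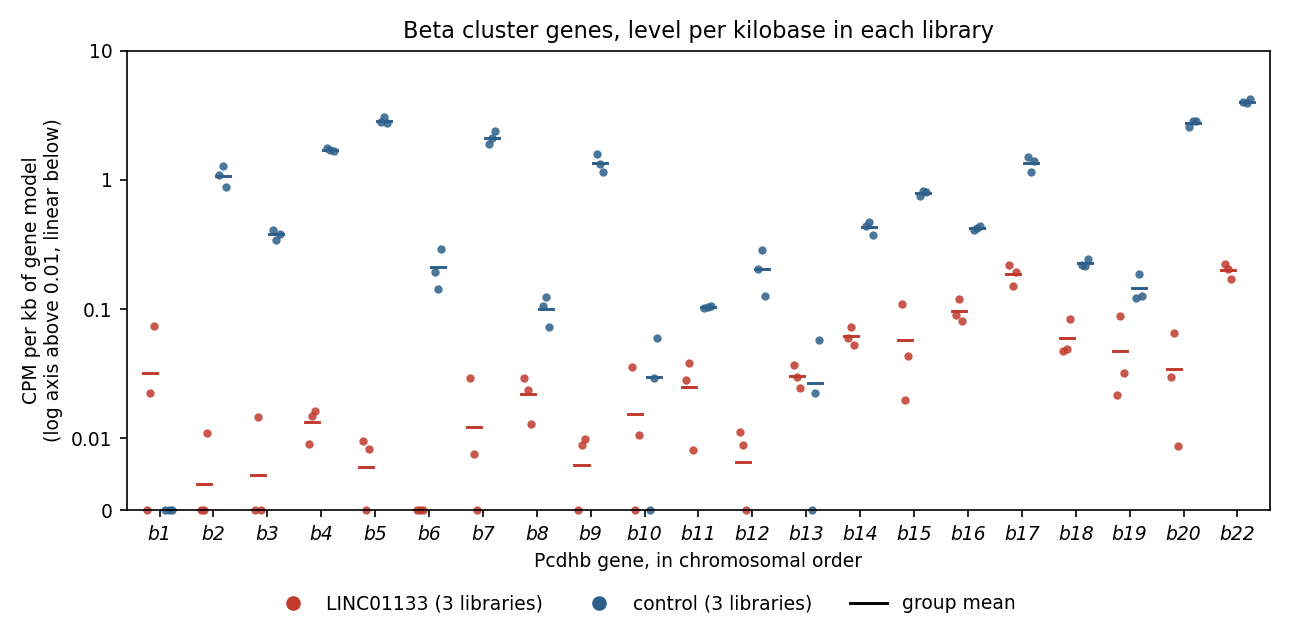
Level per kilobase of gene model (CPM per kb, y axis, logarithmic above 0.01 and linear below) of the 21 beta genes in chromosomal order (x axis), LINC01133 left and control right for each gene, points being single libraries and lines group means. For Pcdhb14 to Pcdhb22 all LINC01133 points lie below the control points of the same gene, at means up to 0.200 CPM per kb (Pcdhb22, against 4.04 CPM per kb).

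In the alpha and gamma clusters the count table does not separate isoforms, since the constant exons are shared by all transcripts of a cluster and a few rows stand for many variable exons. The Pcdha11 row has a gene model of 39267 bases, close to the 40755 bases of all alpha exons in GENCODE M21, and the Pcdhga12 row has one of 55922 bases, where all gamma exons cover 70891 bases. Neither value can be read as that of a single isoform. The row labelled Pcdha4 is 2118 bases long. That is shorter than each of the 3 annotated Pcdha4 transcripts (2894 to 5363 bases) and 1 base under the 2119 bases of the 3 constant exons of the gamma cluster, while the alpha constant exons measure 2860 bases. What was counted in that row is not given in the sources used here, so whether it reports alpha or gamma transcripts cannot be told apart.

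Pcdha11 fell to 29, 29 and 24 counts with LINC01133, against 106, 112 and 85 counts in the controls (0.837 ± 0.134 and 4.21 ± 0.531 CPM; log2 fold change -2.34, SE 0.197, adjusted p = 5.67e-22). The second Pcdha11 row (uc008epg.1) had 0, 2 and 0 counts with LINC01133 and 1, 1 and 0 in the controls. Pcdhga12 had 2502, 3011 and 2792 counts with LINC01133 and 3601, 3495 and 3571 in the controls, at 84.1 ± 0.995 and 148.5 ± 3.52 CPM (log2 fold change -0.82, SE 0.0306, adjusted p = 7.00e-54). Its groups did not overlap on the CPM scale. The row labelled Pcdha4 had 1616, 1924 and 1815 counts with LINC01133 and 1730, 1846 and 1722 in the controls, at 54.3 ± 1.04 and 73.8 ± 2.98 CPM (-0.44, SE 0.0390, adjusted p = 8.70e-21). Scaled by library size alone these values became -0.58 for Pcdhga12 and -0.20 for Pcdha4, still lower. The raw count of the Pcdha4 row relative to the Pcdhga12 row was 0.646, 0.639 and 0.650 with LINC01133 and 0.480, 0.528 and 0.482 in the controls, without overlap. This ratio does not depend on how the libraries were scaled. Summed by symbol, the alpha rows had a log2 ratio of -0.50, and of -2.33 without the row labelled Pcdha4.

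Per kilobase of gene model, the order of the levels differed between the groups. With LINC01133 the highest were the Pcdha4 row (25.6 CPM per kb), Pcdh1 (17.9), Pcdh7 (9.45) and the Pcdhga12 row (1.504), and the next, Pcdh18, had 0.452 CPM per kb. In the controls they were the Pcdha4 row (34.8 CPM per kb), Pcdh18 (24.6), Pcdh17 (8.90) and Pcdhb22 (4.04), followed by Pcdhb5 (2.87), Pcdhb20 (2.77) and the Pcdhga12 row (2.66). Pcdh18 was thus still the fifth highest member with LINC01133. The place of the Pcdhga12 row depends on its gene model of 55922 bases, which covers many variable exons. By CPM that row was the highest member in the controls (148.5 CPM).

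**Figure D4:**
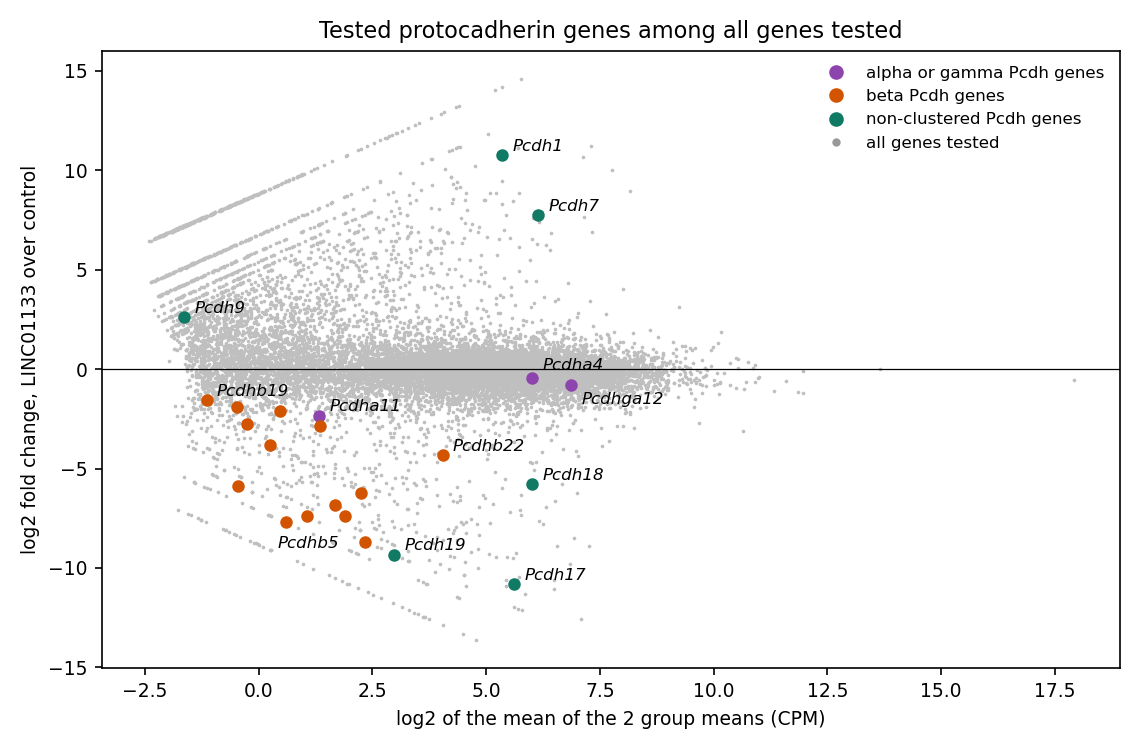
Log2 fold change of LINC01133 over control (y axis) against the log2 of the mean CPM of the groups (x axis) for all 14116 genes tested (grey) and the 23 tested protocadherin genes (coloured by class). Pcdh1 and Pcdh7 lie at 10.78 and 7.77, Pcdh17, Pcdh19 and Pcdh18 at -10.80, -9.33 and -5.77, the beta genes between -8.69 and -1.54, and the Pcdha4 and Pcdhga12 rows at -0.44 and -0.82.

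Genes that flank the clusters on chromosome 18, or lie between them, moved in both directions. Of 23 found (24 listed), 14 were called higher and 6 lower, with 3 and 1 at least 2-fold (median log2 fold change 0.24, and 0.05 over all genes tested). Over all genes tested 44.5% were called higher and 40.5% lower, and 20.3% and 13.9% at least 2-fold. By library size alone the calls among the flanking genes were 17 higher and 3 lower. Those with the smallest p were Ndfip1, an adaptor of ubiquitin ligases (77.9 ± 2.69 against 49.7 ± 1.43 CPM, log2 fold change 0.65), Spry4, an inhibitor of growth factor signalling (1.17), Rnf14 (0.49), and the histone deacetylase gene Hdac3 (-0.39). Taf7 and Slc25a2, which lie between the beta and gamma clusters and are named here for that position, had log2 fold changes of 0.26 (adjusted p = 0.0133) and -0.02 (adjusted p = 0.968). Slc25a2 had 11, 14 and 13 counts with LINC01133 and 8, 14 and 6 in the controls.

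Clustered protocadherin promoters are chosen through DNA methylation and through CTCF and cohesin, which bring an enhancer to them. Of 21 genes of this machinery 6 were called higher and 13 lower, with 1 and 2 at least 2-fold (median log2 fold change -0.22), beside 44.5% higher and 40.5% lower over all genes tested (20.3% and 13.9% at least 2-fold). By library size alone the calls were 10 higher and 10 lower. Smchd1, a chromatin protein that represses clustered protocadherins and the inactive X in mice, fell to 143.5 ± 2.93 CPM with LINC01133, against 348.9 ± 2.60 CPM in the controls (log2 fold change -1.28, adjusted p = 4.59e-87). The maintenance methyltransferase gene Dnmt1 stood at 285.2 ± 3.59 and 470.1 ± 5.65 CPM (-0.72), and the histone methyltransferase gene Setdb1 at 63.5 ± 0.726 and 105.5 ± 4.98 CPM (-0.73). Dnmt3b, a de novo methyltransferase, rose to 6.61 ± 0.856 CPM, against 0.305 ± 0.0907 CPM (4.41, adjusted p = 1.03e-39). Ctcf itself was at 116.2 ± 1.33 and 115.1 ± 1.03 CPM (0.01, adjusted p = 0.694).

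Of 15 tested genes (16 found, 17 listed) for the WAVE complex and kinases that act with protocadherins, 6 were called higher and 8 lower, with 2 and 2 at least 2-fold (median -0.18, beside the same shares over all genes), and by library size alone 7 higher and 5 lower. Marcks, a membrane-bound actin regulator, had 74, 63 and 57 counts with LINC01133 and 1807, 1633 and 1715 in the controls (log2 fold change -5.19, adjusted p = 5.66e-100). The WAVE complex gene Cyfip1 (-0.57) and the kinase gene Fyn (-0.89) were lower, and the GTPase gene Rac1 was higher (0.37). Of 6 genes found (7 listed) for the proteases that cleave protocadherins, 2 were called higher and 4 lower (median -0.60). At least 2-fold were 0 and 1 of them. Over all genes tested 44.5% were called higher and 40.5% lower, and 20.3% and 13.9% at least 2-fold. By library size alone the calls for the proteases were also 2 higher and 4 lower. Adam10, the sheddase, rose to 145.5 ± 1.16 CPM with LINC01133, against 96.4 ± 2.36 CPM in the controls (0.59), and the gamma-secretase genes Aph1a (-1.72) and Aph1b (-0.65) fell.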

How the data were processed

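Per the labels' protocols, total RNA of 6 samples was sequenced after Illumina TruSeq preparation. The authors deposited raw whole-number counts per gene with gene lengths. The submitters' processing notes name bcl2fastq and mm10. An aligner, counter, annotation or strand setting is not given in the sources used here, so overlapping genes cannot be told apart. No column lacked a sample (0). Of rows with the same symbol, the one of highest mean was kept.

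Groups came from the titles. Genes were filtered with filterByExpr, scaled by TMM and compared in R 4.3.3 by the robust quasi-likelihood test of edgeR 4.0.16. P-values were adjusted by Benjamini-Hochberg over the 14116 genes left. In simulated counts with 50 genes changed at each fold, 84% were recovered at 1.25-fold and 100% at 2-fold. There were 14 false calls among 13826 genes tested. Far fewer genes were changed there than were called in these data, so the simulation does not check the scaling under so wide a difference. The standard error is the log2 fold change divided by the square root of F. Group sums were described without a test. Folds against 0 reads use a floor of 3 counts over the group; with 1 to 3 counts an exact 95% binomial interval is given, and both cover counting error only. Within groups, replicate pairs differed by a chi-square of 1.61 to 2.32 per degree of freedom, above sampling noise, so no pair was merged as copies of 1 library; this does not show that they were separate cultures. Alternatives were other scalings, filters, DESeq2 1.42.0, limma voom 3.58.1, a replicate block, a stricter threshold and leaving out each sample. Members and lists were chosen with earlier results of these data known. Every Pcdh gene was to be accounted for, with values in every library from a mean of 1 CPM in either group, and up to 4 genes of each other list by smallest p. Positions and exon lengths are from GENCODE M21 (the same assembly), matched by symbol. Figures were drawn with matplotlib 3.10.9. Taf7, Slc25a2 and Ctcf fall outside this rule and were chosen after their values were seen. Some listed genes are not reported here by name. Human LINC01133 expression was not analysed here.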

Additional observations from a re-analysis of the deposited data

How the results depend on the processing

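All 23 tested protocadherin genes kept their direction and their call in each alternative in which they were tested. The counts of 3 higher and 20 lower were 3 and 20 with the replicate block, DESeq2 or limma voom, 2 and 18 with at least 1 CPM in 3 libraries, 3 to 4 and 20 to 22 on leaving out each sample, and 18 lower without the rows labelled Pcdha4 and Pcdhga12 (chosen after the data were seen). With no count filter they were 7 and 24, since more genes were tested. The 4 further higher genes were Pcdh8, Pcdh10, Pcdh12 and Pcdhb1, and the further lower genes were Pcdhb6, Pcdhb8, Pcdhb11 and Pcdhb12. Pcdhb6 and Pcdhb12 were also called lower on leaving out any 1 LINC01133 sample. The same held for Pcdhb6 without control replicate 2 and for Pcdhb12 without control replicate 3. Same-numbered samples did not deviate together (r = -0.0132, -0.0232 and -0.0179). All correlations between samples of the 2 groups were near 0, and whether same-numbered samples shared a batch cannot be told from them. By library size alone the log2 ratios of summed counts were -0.257 (alpha), -4.12 (beta), -0.575 (gamma), -0.348 (all) and 0.141 (non-clustered, reversed), which follows from the shift of 0.244 in all genes. By upper quartile they were -0.402 (alpha), -0.722 (gamma), -0.494 (all) and -0.00505 (non-clustered), and by RLE -0.579 (all). The alpha ratio was -2.33 without the row labelled Pcdha4 (chosen after its length was seen). By library size alone, 10 genes of the promoter choice list were higher, 5 of the WAVE and kinase list lower and 3 of the flanking genes lower. Depth limits the genes with few reads: where either group has no read of a gene, its fold is only a bound.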
